A study of Ovis aries with 2 samples.

Results

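The cells described here carried RNA of the early kidney-forming mesoderm in sheep embryos at day 16 of pregnancy. They were chosen by a rule: a cell had at least 1 unique molecular identifier (UMI, 1 counted RNA molecule) of at least 2 of the 5 genes PAX2, PAX8, LHX1, OSR1 and WT1, and 0 UMIs of TBX4. The rule found 119 of 24137 kept cells, from 27768 barcodes in all. The 93 members in the Hulunbuir library and the 26 in the Ujumqin library are called LHX1/PAX8/WT1 cells below, after their leading genes.

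The study set Hulunbuir short-tailed sheep, the experimental group, against fat-tailed Ujumqin sheep, the control group, in single-cell RNA sequencing of whole embryos. In both breeds the ewes' cycles were synchronised with progesterone sponges and PMSG before mating. Extraembryonic tissue was removed and the embryos were digested to single cells. The series design gives 3 per group, and each breed has 1 library, so a difference between the breeds cannot be set against a spread between replicates, and no test was run. Intervals are 95% intervals and cover counting error only.

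Intermediate mesoderm lies between the somites and the lateral plate and gives rise to the nephric duct, the tubules of the early kidneys and part of the gonads. PAX2, PAX8 and LHX1 are transcription factors that specify the nephric lineage and its duct. OSR1 marks the early intermediate mesoderm, and WT1 is used in the nephrogenic mesenchyme, in podocytes (the filtering cells of the glomerulus) and in the epithelium that lines the body cavity. TBX4 marks the allantois and the hind limb field.

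Of the 14554 kept Ujumqin cells 26 were members, a share of 0.179% (interval 0.117 to 0.262%). In Hulunbuir the share was 0.970% (93 of 9583 cells, interval 0.784 to 1.19%). The libraries differed in what else they held. The Ujumqin library had 3965 erythroid cells by their marker genes and the Hulunbuir library had 1, and the other non-erythroid cells had a median of 2214 UMIs in Ujumqin and 11835 in Hulunbuir. Among cells with at least 5000 UMIs the shares were 0.322% and 1.22%. The members themselves were deep, with a median of 20904.5 UMIs in Ujumqin and 15263 in Hulunbuir. The libraries shared 61 barcodes, and none of them was a member in either library.

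Most members stood just inside the rule. Exactly 2 rule genes were found in 24 Ujumqin and 78 Hulunbuir members, and 3 or more in 2 and 15. Just outside it, 232 kept Ujumqin and 496 kept Hulunbuir cells had exactly 1 rule gene, and 2 Hulunbuir cells with 2 or more rule genes had TBX4. LHX1 with WT1 was the most frequent combination in both libraries, in 9 Ujumqin and 42 Hulunbuir members. PAX8 with LHX1 came next, in 8 and 16. Cells with at least 2 of the 3 duct genes PAX2, PAX8 and LHX1 are called duct-combination cells. They were 46.2% of the Ujumqin members (12 of 26, interval 26.6 to 66.6%) and 36.6% of the Hulunbuir members (34 of 93, interval 26.8 to 47.2%). The other members, but for 1, paired 1 duct gene with OSR1 or WT1 (mixed combination, 14 and 58 cells).

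**Figure D1:**
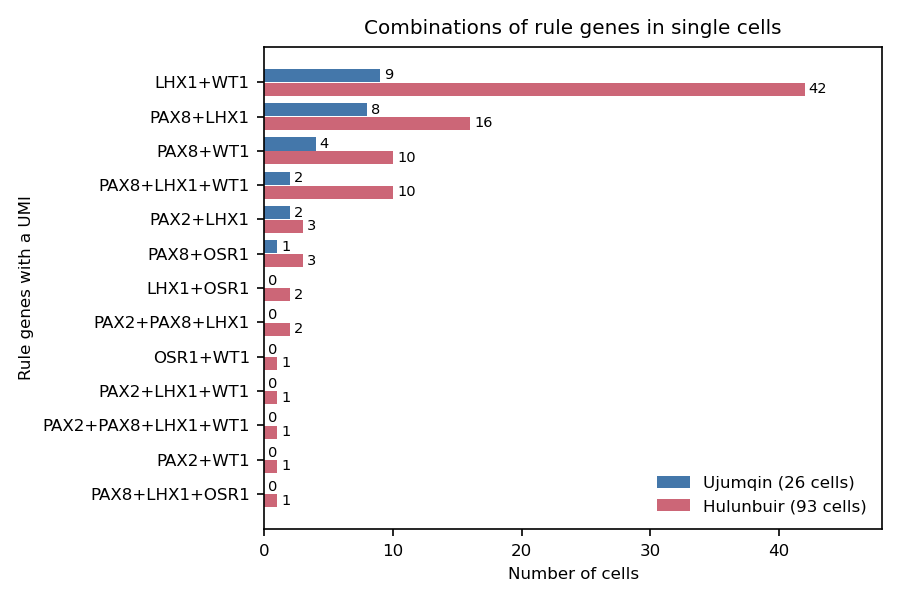
Number of members (x axis) with a UMI of each combination of the 5 rule genes (y axis), in Ujumqin (26 cells, upper bars) and Hulunbuir (93 cells, lower bars). LHX1 with WT1 leads in both libraries with 9 and 42 cells, and OSR1 with WT1 alone is in 0 and 1 cells.

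By gene, LHX1 was found in 21 of 26 Ujumqin and 78 of 93 Hulunbuir members, WT1 in 15 and 66, and PAX8 in 15 and 43. PAX2 was rare, in 2 and 8 members, and OSR1 was in 1 and 7. These counts follow from the rule and are a description. PAX8 seen alone was much more frequent than PAX8 in a member: of 265 kept Hulunbuir cells with a PAX8 UMI, 43 were members.

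Several defining markers of a body cavity lining had 0 UMIs in the members. OSR1 and WT1 without a duct gene occurred in 0 Ujumqin and 1 Hulunbuir member, but OSR1 had a UMI in only 8 and 54 kept cells, so this count says little. Of the 16 coelomic lining genes in the files, 8 had 0 UMIs in the members of both libraries, among them UPK3B, a mesothelial membrane protein, LHX9 and NR5A1, factors of the gonadal ridge, TBX18, GATA4 and GATA6. Kidney lists had such genes too: 3 of 17 nephric duct and tubule, 5 of 15 nephrogenic mesenchyme and 6 of 13 other kidney genes. The share of all features at 0 UMIs is not given here, so these counts are a description only. The keratins of simple epithelia were lower than in the other non-erythroid kept cells, KRT18 at 497 CPM (UMIs of a gene per 1000000 UMIs of the group of cells) against 1099 in Ujumqin and 638 against 2979.7 in Hulunbuir. Most of the Ujumqin KRT18 level came from 1 member with 317 UMIs, and 2 Hulunbuir members had at least 100 UMIs each. KRT8 was at 27.9 against 67.0 CPM in Ujumqin and at 41.3 against 223 CPM in Hulunbuir. Another gene of the coelomic lining list was higher in members, TCF21, a basic helix-loop-helix factor of visceral mesenchyme and podocyte precursors. It was at 85.1 CPM in Ujumqin members against 23.7 in the other cells, and at 139 against 19.2 in Hulunbuir. The lateral plate list had 0 of its 13 genes at 20 or more UMIs in the members of either library, and the allantois list 0 of 8. TBX4 is 1 of these 8 and is at 0 through the rule. Of all 26478 features, 4522 reached 20 UMIs in the members of 1 library, so 0 in lists this short says little.

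Levels in members were compared with those in the other non-erythroid kept cells of the same library, and genes that were at least 4-fold apart in both libraries were counted. Of 1732 genes with at least 50 CPM in the members of both, 13 (0.751%) were at least 4-fold higher in the members. LHX1 is among them through the rule. Without the members that had SST, INS or C1QA, described below, the count was 6, an alternative added after seeing the data. The cells compared with differed between the libraries: a list of 8 yolk sac endoderm genes summed to 8606 CPM in the other Ujumqin cells and to 255 in Hulunbuir, against 116 and 175 in the members. The part of this difference in the comparison was not tested.

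EMX2, a homeobox factor needed in mice for the urogenital tract, led the genes that the rule did not use when they were ranked over both libraries; in Ujumqin alone DLK1 had the larger difference. It was at 64.8 CPM in Ujumqin members (13 of 26 cells) and 74.1 CPM in Hulunbuir members (40 of 93 cells), against 2.46 and 2.56 CPM in the other cells. That is a log2 difference of 4.72 (interval 4.26 to 5.15) in Ujumqin and 4.85 (4.55 to 5.15) in Hulunbuir. In Ujumqin erythroid cells EMX2 was at 6.07 CPM. DLK1, an imprinted gene for a membrane protein related to Notch ligands, was at 1486 CPM in Ujumqin members and 517 in Hulunbuir members, against 45.9 and 25.9 in the other cells. UMIs of DLK1 were in 24 of 26 and 77 of 93 members.

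Genes for growth control and nuclear receptors came with them. CDKN1C, an imprinted inhibitor of cyclin-dependent kinases, was found in all 26 and all 93 members, at 1308 and 3094 CPM against 270 and 309 in the other cells. IGFBP7, which binds insulin-like growth factors, was at 509 and 623 CPM against 76.9 and 65.4. NR2F1, an orphan nuclear receptor of the COUP-TF family, was at 85.1 and 57.1 CPM against 10.5 and 10.1. Its paralog NR2F2 was at 133 and 78.6 CPM against 9.37 and 18.4.

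The other called genes with a symbol act in the cytoskeleton, adhesion and sterol synthesis. MYO6, an unconventional myosin, was higher by 2.99 (Ujumqin) and 3.11 (Hulunbuir) on the log2 scale, and CADM1, an adhesion protein, by 2.61 and 2.15. SRGAP1, which acts downstream of Robo receptors, was higher by 2.14 and 2.85, and TM7SF2, a sterol reductase, by 2.63 and 2.26. SRGAP1 was uneven among the members. It was higher in those with SST, INS or C1QA than in those without, by log2 2.82 in Ujumqin and 2.40 in Hulunbuir. MYO6 had UMIs in 71.2% of Hulunbuir members with these genes and in 39.0% of those without. S100A2, a calcium-binding protein, was called as well, but 89.6% of its Ujumqin UMIs came from 1 cell. Without that cell its level there was 49.3 CPM, against 53.5 in the other cells.

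At least 4-fold lower in the members of both libraries were 15 of the 1540 genes (0.974%) with at least 50 CPM in the other cells of both. Several matrix genes were among them. LUM and DCN, small proteoglycans of connective tissue, were at 15.2 and 6.35 CPM in Ujumqin members against 1070.1 and 668 in the other cells. In Hulunbuir they were at 20.4 and 17.5 CPM against 412 and 311. The fibrillar collagen genes COL1A1 and COL3A1 were called, with log2 differences of -5.37 and -2.50 and of -4.23 and -2.56, and so was PCOLCE, an enhancer of procollagen processing, with -4.68 and -2.50. COL1A2 was not: it was at 50.8 against 665 CPM in Ujumqin and at 205 against 283 in Hulunbuir.

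Genes for secreted proteins were also among them. REG4, a secreted lectin, had 0 UMIs in Ujumqin members, at least 30.9-fold lower than in the other cells, and 2 UMIs in Hulunbuir members, a log2 difference of -6.15 (interval -9.19 to -4.29). RBP4, the carrier of retinol, had 4 UMIs in the members of each library, with log2 differences of -4.85 and -5.33. A2M, a protease inhibitor, had 0 and 2 UMIs. S100A10, a partner of annexin A2, and TMEM88, a membrane protein that restrains Wnt signalling, were lower by log2 -3.61 and -2.61 in Ujumqin and by -3.32 and -2.86 in Hulunbuir.

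**Figure D2:**
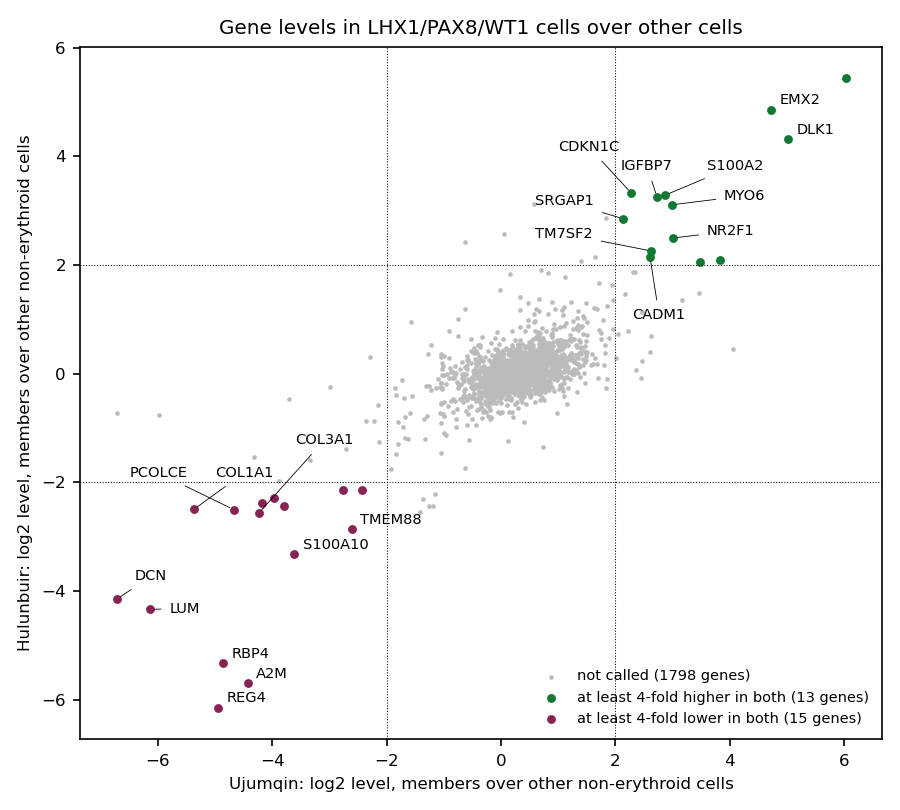
Log2 level of each gene in the members over the other non-erythroid cells, in Ujumqin (x axis) and Hulunbuir (y axis); each point is 1 gene, with 13 genes at least 4-fold higher and 15 at least 4-fold lower in both libraries in colour, and dotted lines at 4-fold. EMX2 and DLK1 stand at the upper right, and REG4, RBP4, A2M, LUM and DCN at the lower left.

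EMX2 and TCF21 were then counted cell by cell. Neither was in the rule, but both had already been seen to be higher in these same members. The counts therefore describe that contrast and are no separate support for it. One or both had a UMI in 88.5% of Ujumqin and 78.5% of Hulunbuir members, against 48.3% and 36.3% of the cells with exactly 1 rule gene. In cells with no rule gene the shares were 10.9% and 13.8%. TBX4-positive cells had them in 60.7% and 31.8%, in Ujumqin through TCF21 in 285 of 473 cells, while EMX2 was in 4. When cells with at least 5000 UMIs were thinned to 5000 and the shallower ones left out (6406 of 9912 Ujumqin cells with no rule gene and 29 of 178 with 1, and 0 of 26 members), EMX2 was found in 23.1% of Ujumqin members, 9.40% of cells with 1 rule gene and 1.14% of cells with none. In Hulunbuir, where 1971 of 7815 cells with no rule gene, 36 of 465 with 1 and 1 of 93 members were left out, these shares were 25%, 7.69% and 0.565%. Without thinning they were 50%, 20.8% and 1.49% in Ujumqin and 43.0%, 15.7% and 1.25% in Hulunbuir. The single genes were not alike in this. Cells with LHX1 alone had EMX2 or TCF21 in 62.7% (Ujumqin) and 57.8% (Hulunbuir), and cells with WT1 alone in 60.0% and 67.9%. Cells with PAX8 alone had them in 34.9% and 15.4%, and the few cells with OSR1 alone in 40.0% and 11.6%.

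Lists of kidney, signalling and position genes were read at a lower fold. Of 4522 genes with at least 20 UMIs in the members of 1 library, 223 (4.93%) were at least 2-fold higher than in the other cells of both libraries and 50 (1.11%) were at least 2-fold lower. The lists were chosen with earlier results of these data known.

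Of 17 nephric duct and tubule genes in the files, 4 reached 20 UMIs and 3 of them were 2-fold higher in both libraries, EMX2, BMP7 and PCDH19. BMP7, a growth factor that keeps nephron progenitors alive, was at 87.6 and 76.9 CPM against 37.5 and 30.9. PCDH19, a protocadherin, was at 10.2 and 23.7 CPM against 0.910 and 3.12. Several other genes of this list were at or near 0. WNT9B, CDH16 and POU3F3 had no UMI in either library's members, and RET, the receptor that guides duct growth, had 0 and 4.

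Of 15 nephrogenic mesenchyme genes, 4 reached 20 UMIs and 3 were 2-fold higher, CITED1, CITED2 and FOXC2. CITED2, a transcriptional co-regulator, was at 121 and 241 CPM against 38.6 and 54.4. Its paralog CITED1, a marker of nephron progenitors, was at 10.2 and 52.6 CPM against 3.73 and 21.1. FOXC2, a forkhead factor of early kidney mesoderm, was at 5.08 and 11.3 CPM against 0.191 and 0.962. SIX2 and WNT4, which mark and drive later nephron formation, had 0 UMIs. JAG1, a Notch ligand, was at 48.3 and 36.2 CPM against 4.49 and 7.18, while proximal tubule genes such as CUBN and SLC3A1 were at 0.

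In the BMP list, 7 of 20 genes reached 20 UMIs, and 0 were 2-fold apart in the same direction in both libraries. The same held for the retinoic acid list, where 3 of 15 genes reached 20 UMIs. The proliferation list had 6 of 7 genes at 20 UMIs and 0 of them 2-fold apart in both, with TOP2A at 530 and 540 CPM against 196 and 448.

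HOX genes, which mark position along the body axis, showed anterior and middle groups and few posterior ones. Of 36 HOX genes, 11 reached 20 UMIs, and 5 were 2-fold higher than in the other cells of both libraries, HOXA2, HOXA3, HOXA4, HOXA5 and HOXD3. HOXA5 was at 44.4 and 75.2 CPM against 3.99 and 19.4. Summed over its genes, paralog group 7 was at 180 CPM in Ujumqin and 71.2 in Hulunbuir members, and group 9 at 121 and 68.4. In the other cells group 7 was at 12.2 and 50.4 CPM and group 9 at 26.2 and 97.3, so group 9 was higher in members in Ujumqin and lower in Hulunbuir. Group 6 was at 58.4 CPM in Ujumqin members against 4.53, and at 31.7 in Hulunbuir members against 34.2. Group 11 was at 5.08 and 3.96 CPM, against 15.3 and 49.5 in the other cells and 27.3 and 77.1 in TBX4-positive cells. Groups 10 and 12 had 0 UMIs in the members of both libraries.

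**Figure D3:**
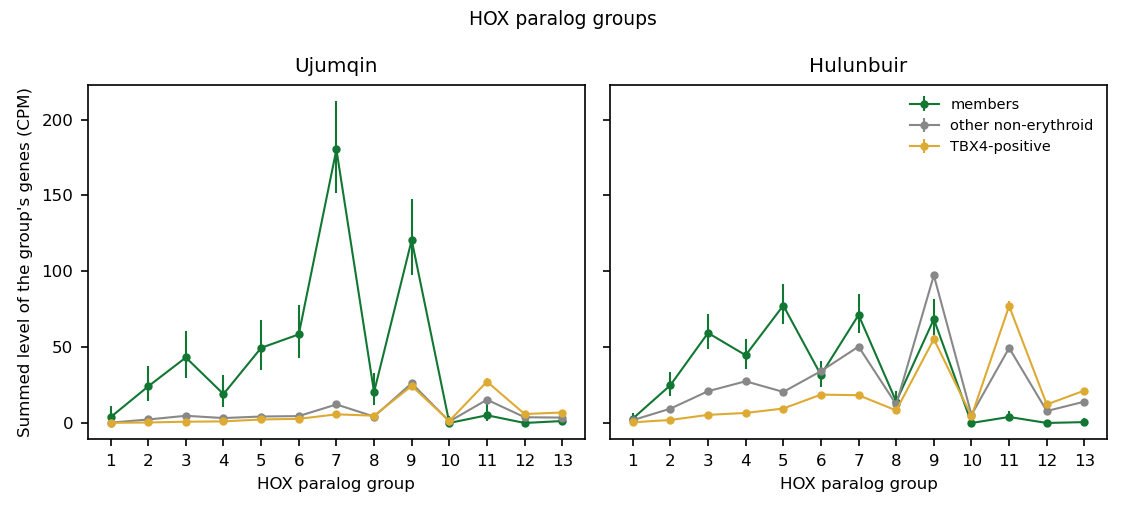
Summed level of the genes of each HOX paralog group (y axis, CPM; x axis, group 1 to 13) in members, other non-erythroid cells and TBX4-positive cells of Ujumqin (left) and Hulunbuir (right), with exact Poisson intervals as bars. Members lie above the TBX4-positive cells in groups 2 to 7 and below them in groups 11 to 13.

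The members were then compared by their combination of rule genes. Of 1895 genes, 0 were at least 4-fold higher and 0 at least 4-fold lower (0% each) in duct-combination than in mixed-combination cells of both libraries. EMX2 was the higher in duct-combination cells, by log2 2.00 (interval 1.09 to 2.97) in Ujumqin and 1.31 (0.76 to 1.88) in Hulunbuir. TCF21 was the lower by 1.64 on the log2 scale in Hulunbuir (difference -1.64, interval -2.09 to -1.20), and in Ujumqin the difference was -0.50 with an interval across 0 (-1.33 to 0.29).

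A larger contrast ran with 3 genes outside the rule. SST (somatostatin), INS (insulin) and C1QA (a complement subunit), hormone and immune genes by their textbook use, had UMIs in part of the members. At least 1 of them was found in 55.9% of Hulunbuir members (52 of 93, interval 45.2 to 66.2%) and in 19.2% of Ujumqin members (5 of 26, interval 6.55 to 39.4%). This split was chosen after the values were seen. SST was at 487 CPM in Hulunbuir members, in 33 cells, and at 26.1 CPM in the other cells. Thinned to 5000 UMIs in the same way, SST was in 26.1% of Hulunbuir members, 9.79% of the cells with 1 rule gene and 0.804% of those with none. INS was at 93.8 CPM in Hulunbuir members against 4.41 in the other cells, and C1QA at 135 CPM. Median depths were close, 14410 UMIs in Hulunbuir members with these genes and 15655 in those without.

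Hulunbuir members with SST, INS or C1QA had WT1 in 45 of 52 cells and PAX2 in 1, and those without had WT1 in 21 of 41 and PAX2 in 7. TCF21 was at 234 CPM in the former (46 of 52 cells) and 22.6 in the latter (5 of 41 cells). In Ujumqin it was at 202 CPM in the 5 cells with these genes and 61.2 in the 21 without. EMX2 went the other way in Hulunbuir, at 40.0 CPM with them and 116 without. In Ujumqin it was at 44.8 and 68.9 CPM, a log2 difference of -0.62 with an interval across 0 (-2.14 to 0.61).

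Many genes known from podocytes were higher in the Hulunbuir cells with SST, INS or C1QA. This list, too, was chosen after the values were seen. In Hulunbuir, 500 of 4489 genes with 20 UMIs (11.1%) were at least 2-fold higher in the cells with these genes and 229 (5.10%) at least 2-fold lower. Of the 16 podocyte genes with 20 UMIs there, 15 were 2-fold higher and 0 lower. PTPRO, a receptor phosphatase of podocyte foot processes, was at 80.1 CPM with them and had 0 UMIs without, in 27 and 0 cells. THSD7A, a podocyte membrane protein, was at 165 and 2.52 CPM, and in Ujumqin at 179 CPM and 0 UMIs. VEGFA, the endothelial growth factor that podocytes secrete, was at 156 and 8.81 CPM, and CDKN1C at 4438 and 1447. COL4A5, a collagen of the basement membrane, was at 86.3 and 11.3 CPM in Hulunbuir and at 67.2 and 10.7 in Ujumqin. CD2AP, a scaffold at the slit diaphragm, was at 184 and 67.9 CPM in Hulunbuir and at 194 and 67.3 in Ujumqin. NPHS1 (nephrin) had 19 UMIs in 14 Hulunbuir members, and SYNPO and COL4A3 had 0.

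Growth factor and nephron progenitor genes differed along the same split. In Hulunbuir, IGFBP5 was at 776 CPM with SST, INS or C1QA and 41.5 without, and in Ujumqin at 418 and 116. IGF2 was at 4249.7 and 1618 CPM in Hulunbuir and at 3331 and 1542 in Ujumqin. CITED1 was at 94.5 and 1.26 CPM in Hulunbuir, and at 44.8 and 3.06 in Ujumqin.

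The Hulunbuir members without SST, INS and C1QA had more of FST, a secreted inhibitor of activins, at 210 CPM against 5.13. HOXA7 was at 113 against 10.3 CPM and HOXB9 at 79.3 against 6.16. HOX paralog groups 7, 8 and 9 were at 132, 27.7 and 131 CPM without against 21.6, 3.08 and 17.5 with. Groups 4 and 6 were closer, at 46.5 against 43.1 and 37.7 against 26.7 CPM, and in group 5 the order was the other way, with HOXA5 at 41.5 against 103. PTN, a heparin-binding growth factor, was at 481 against 52.4 CPM, and EPCAM, an epithelial adhesion protein, at 89.3 against 32.9. In Ujumqin, with 5 cells in 1 group, the intervals of the log2 difference crossed 0 for FST, HOXB9 and PTN. For HOXA7 it was -1.25 (interval -2.35 to -0.32). In both libraries, 22 of 1980 genes (1.11%) were at least 4-fold higher with SST, INS or C1QA, counting C1QA itself, and 1 (0.0505%) was lower, S100A10.

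**Figure D4:**
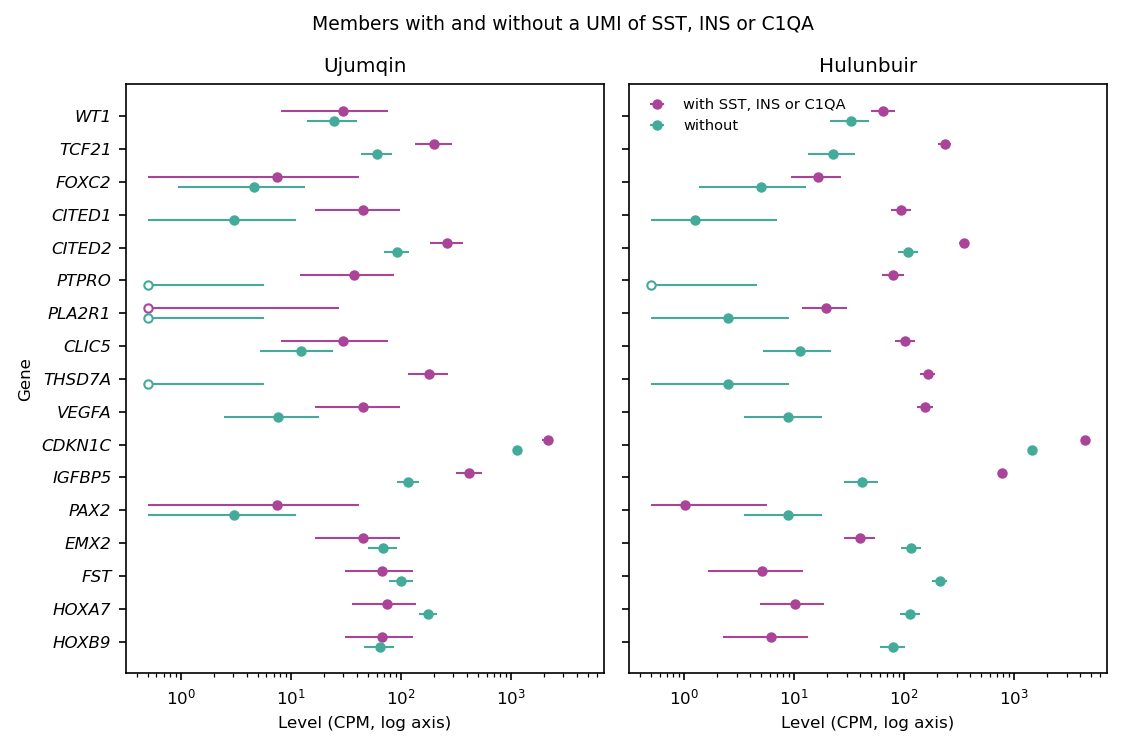
Level of 17 genes (x axis, CPM on a log axis) in members with and without a UMI of SST, INS or C1QA, in Ujumqin (left, 5 and 21 cells) and Hulunbuir (right, 52 and 41 cells), with exact Poisson intervals as bars. Open points at the left edge are at 0 UMIs. TCF21, PTPRO, THSD7A and IGFBP5 are higher with these genes in both libraries, and EMX2, FST, HOXA7 and HOXB9 are lower with them in Hulunbuir. In Ujumqin PTPRO had UMIs in only 40% of the 5 cells with these genes and 0% of the 21 without.

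The members of the breeds were compared last, which is the contrast the study was designed for. Of 2141 genes with at least 50 CPM in the members of 1 library, 21 (0.981%) were at least 4-fold higher in Hulunbuir and 13 (0.607%) in Ujumqin. The median log2 difference, Hulunbuir over Ujumqin, was 0.08 over these genes in the members and 0.35 in the other cells. Of the 21, 13 were at least 2-fold higher in Hulunbuir in the other cells as well, and of the 13, 9 were 2-fold higher in Ujumqin there. In the other cells, 5 of the 21 genes and 1 of the 13 differed in the opposite direction. The share of all 2141 genes that were 2-fold apart in the other cells is not given here, so these counts are a description only.

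SST led the genes higher in Hulunbuir, with 3 UMIs in Ujumqin and 861 in Hulunbuir members, a ratio of levels of 128 (log2 interval 5.45 to 9.28). INS had 2 and 166 UMIs. DEPP1, a target of FOXO factors, had 0 UMIs in Ujumqin and was at 62.8 CPM in Hulunbuir, at least 16.5-fold higher. MPP5, a scaffold of epithelial polarity, was at 5.08 and 56.5 CPM, P3H2, a collagen prolyl hydroxylase, at 6.35 and 59.9, and VEGFA at 13.97 and 89.9. COL13A1, a transmembrane collagen, was at 7.62 and 59.9 CPM, and OSBPL3, a lipid-binding protein, at 11.4 and 77.5. For PLVAP and APOA1 1 cell decided the level, with 75.4% and 80.0% of the Hulunbuir UMIs. PLVAP marks fenestrated endothelium, and 2 Hulunbuir members had UMIs of 3 or more of 10 endothelial genes.

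Some of these differences were smaller among the members without SST, INS and C1QA. There VEGFA was at 7.65 CPM in Ujumqin and 8.81 in Hulunbuir, a log2 difference of 0.20 (interval -1.67 to 2.20). For P3H2 it was 1.13 (-0.93 to 3.68) and for OSBPL3 1.04 (-1.57 to 4.43). TCF21 was at 85.1 and 139 CPM over all members and at 61.2 and 22.6 among those without, where the log2 difference was -1.43 (-2.32 to -0.60).

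Higher in Ujumqin were 8 genes with a symbol. AHSG, a serum protein of the yolk sac and liver, was at 53.3 CPM with UMIs in 21 of 26 members and had 1 UMI in Hulunbuir. It was at 275 CPM in Ujumqin erythroid cells, a higher level than in the members. AHSG was also at least 2-fold lower in the members than in the other non-erythroid cells of both libraries. Of 8 yolk sac endoderm genes, AHSG among them, 0 of the 26 Ujumqin members lacked all, and 12 had 3 or more. In Hulunbuir, 55 members lacked all and 1 had 3 or more. Whether the UMIs in members are their own expression or background was not tested. FOS, an immediate early gene, was at 413 and 88.8 CPM, and at 293 and 59.5 in the other cells. CREBRF, a regulator of the stress factor CREB3, was at 61.0 and 9.61 CPM. MYL4, CLDN4, CLDN7, KRT7 and PDLIM1 each had 80.5% or more of their Ujumqin UMIs in 1 cell. 1 Ujumqin member stood apart, with 317 UMIs of KRT18, 81.1% of that library's member total.

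Some differences between the breeds lay below the 4-fold limit. DLK1 was at 1486 CPM in Ujumqin and 517 in Hulunbuir members, a log2 difference of -1.52 (interval -1.65 to -1.40), and among those without SST, INS and C1QA it was -1.75 (-1.93 to -1.57). HOXA7 was at 160 and 56.5 CPM, a log2 difference of -1.50, and among those without at -0.65 (-1.06 to -0.24). EMX2 was within 1.14-fold, at 0.19 on the log2 scale (-0.28 to 0.69).

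**Figure D5:**
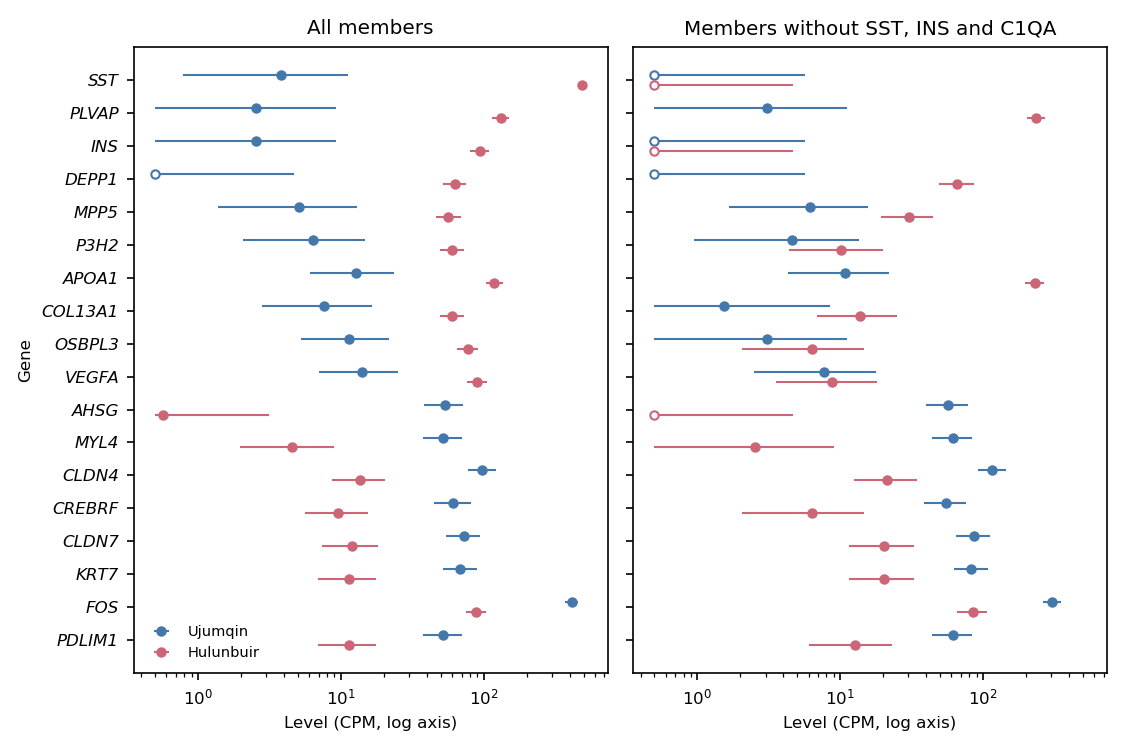
Level (x axis, CPM on a log axis) of the 18 genes with a symbol that led the comparison of the breeds, in all members (left) and in members without SST, INS and C1QA (right), with exact Poisson intervals as bars and open points at 0 UMIs. VEGFA, P3H2 and OSBPL3 have overlapping intervals in the right panel, and FOS and CREBRF are higher in Ujumqin in both. SST and INS are at 0 UMIs in the right panel because its members were chosen to lack them.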

How the data were processed

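The authors deposited UMI counts per gene and barcode, not normalized, made by Cell Ranger (5.0.0 in the file headers, 3.1.0 in the submitters' processing notes) on the sheep assembly Rambouillet v1.0, from 10x 3′ v3 libraries of 212933364 UMIs (Ujumqin) and 131385353 UMIs (Hulunbuir). A barcode was kept when it had 200 or more genes and less than 10% of its UMIs on mitochondrial genes. No doublet caller was run. Genes of 1 name on several features (83 symbols) were taken at the first. The level of a gene is its UMIs over all UMIs of a group of cells, per 1000000 (CPM); a group at 0 was set to 3 counts, and intervals are exact Poisson or binomial. Erythroid cells had at least 4 of 8 marker genes. Folds were counted at 4-fold and 50 CPM. No test was run. The 4-fold call between the members of the breeds was tried on simulated pooled Poisson counts, which hold no spread between cells. The member rule, the other comparisons and the split by SST, INS and C1QA were not simulated.

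The members, gene lists and comparisons were chosen with earlier results of these data known. Named were the rule genes, the list genes with at least 20 UMIs in the members of 1 library that were 2-fold over the other cells in both libraries or 4-fold apart between the breeds, up to 4 more per list, and the 10 genes with a symbol of largest fold in each comparison. Genes of the podocyte, growth factor and other kidney lists and of the SST, INS and C1QA split were chosen after their values were seen. Alternatives were other cell filters, rules, floors, folds and scalings. The software was scipy 1.17.1 and numpy 2.4.6 under Python 3.11.15, with pandas 2.3.3 for tables and matplotlib 3.10.9 for plots.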

Additional observations from a re-analysis of the deposited data

Results flagged for a closer look

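TF (transferrin), an iron carrier counted here in the yolk sac list, lay on opposite sides of the other cells in the libraries. In Ujumqin, its log2 level in the members over the other non-erythroid cells was -4.51, at 10.2 against 231 CPM, and in Hulunbuir it was 3.59, at 54.8 against 4.54 CPM. In Ujumqin erythroid cells it was at 15.6 CPM. In Hulunbuir 26 of the 28 members with TF also had SST, INS or C1QA, where TF was at 97.5 CPM against 2.52 in the members without. The difference between the libraries was not tested.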

How the results depend on the processing

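No paired analysis was possible because each breed has 1 library. The comparison of duct-combination cells with cells of OSR1 and WT1 alone gave no value, with 0 and 1 such cells, and mixed-combination cells were taken in their place after seeing the data. With 26 and 93 members, low genes are not measured well, and no alternative stands for a second library. Of 128 values of shares and counts under the alternatives, 92 stayed within the interval of the share or within 1.5 times the count.

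Thinning to 5000 UMIs before the rule, with shallower cells left out, kept 8069 Ujumqin and 7540 Hulunbuir cells and left 4 and 20 members. The shares of these kept cells were 0.0496% in Ujumqin and 0.265% in Hulunbuir, the Hulunbuir duct-combination share was 25%, and 0% of the Ujumqin members had SST, INS or C1QA. The 4-fold counts were 32 higher in Hulunbuir, 389 higher in Ujumqin, 37 higher and 5 lower in members than in the other cells, and 1 lower in duct-combination cells, and the median log2 difference of the breeds was -0.51. With 4 Ujumqin members of 5000 UMIs each, very few UMIs of a gene reach the 50 CPM floor, so the counts that use them say little. With at least 3 rule genes (2 and 15 members) the shares were 0.0137% and 0.157%, and the duct-combination shares 100% and 100%. That duct-combination share is nearly fixed by the rule, since only OSR1 and WT1 are not duct genes. SST, INS or C1QA were in 0% and 66.7% of these members, and 77 and 142 genes were higher in Hulunbuir and Ujumqin. When at least 2 of SST, INS and C1QA were asked for, the Hulunbuir share was 37.6%.

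The count higher in Hulunbuir was 12 without the deepest 5% of cells and 11 with the mean of the cells' CPM. The count higher in Ujumqin was 21 with totals without mitochondrial, ribosomal protein and haemoglobin genes, and 7 without the members rich in keratin or endothelial genes, which also gave 25 genes lower in members. Leaving out members with SST, INS or C1QA gave 6 genes higher in members. At 2-fold the counts were 130 and 36 between the breeds, 38 higher and 32 lower in members, and 1 higher and 3 lower in duct-combination cells. At 200 CPM they were 3 and 6 between the breeds, and 4 higher and 7 lower in members. The duct-combination count was 1 lower without the deepest cells and with the other totals.

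Of 611 values of named genes, 9 changed sign. APOA1, Hulunbuir over Ujumqin, was at -0.74 after thinning and -2.34 with 3 rule genes. Without the deepest cells CLDN4 was at 2.53, CLDN7 at 0.21 and KRT7 at 1.03, and without the keratin- or endothelium-rich members they were at 1.59, 0.23 and 1.37, each a log2 value that rests on 1 Ujumqin cell in the report. S100A2 in Ujumqin members over the other cells was at -0.18 without those members. The cause of the other changes was not tested.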

Other observations

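Cells outside the rule carried the same 3 genes. At least 2 of SST, INS and C1QA were found in 126 Hulunbuir and 9 Ujumqin cells that were no members, and in the Hulunbuir ones TCF21 was at 242 CPM, PTPRO at 92.1, THSD7A at 212 and IGFBP5 at 1024, against 234, 80.1, 165 and 776 CPM in the members with at least 1 of them. WT1 was at 32.9 CPM and LHX1 at 26.2 in these non-members. PAX8 had 0 UMIs in them.

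In Hulunbuir members, 1 of 3 retinoic acid genes and 1 of 6 proliferation genes with 20 UMIs were at least 2-fold lower with SST, INS or C1QA than without, and 0 of either list 2-fold higher, where 5.10% and 11.1% of all genes with 20 UMIs were lower and higher. CRABP2, a retinoic acid-binding protein, was at 24.6 CPM with them and 219 without. TOP2A, a topoisomerase of dividing cells, was at 425 and 681 CPM, less than 2-fold apart. In Ujumqin TOP2A was at 134 CPM in the 5 cells with these genes and 611 in the 21 without, and CRABP2 was at 44.8 and 39.8.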
